A study of Mus musculus with 59 samples.

Results

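BCL6 and PPARα were called at 2108 regions of mouse liver in both the fed and the fasted state while PPARδ was called there in the fed state only. These regions are 13.5% of the 15642 fed BCL6 peaks. They were chosen by peak calls: a fed BCL6 peak was a member when a peak centre of fasted BCL6, fed PPARα, fasted PPARα and fed PPARδ each lay within 200 bp of its own centre and no fasted PPARδ centre did. Calls and distances in these 6 lists are therefore given as a description, without tests. The members are compared with 665 regions where the same calls were made and PPARδ was called in both states, and with 3094 where BCL6 and PPARα were called in both states and PPARδ in neither. A further 79 regions had PPARδ in the fasted state alone and were not compared.

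The livers came from male wild-type C57BL/6 mice that were fed ad lib or fasted overnight. BCL6, PPARα and PPARδ were each mapped by ChIP-seq, in which chromatin bound by a protein is pulled down with an antibody and sequenced, and the 3 replicates of a group were combined into 1 list of peak positions. The 7 lists used here rest on 21 of the 59 samples of the series. One of them, BCL6 in fed male Bcl6 fl/fl mice of the same strain, was not used by the rule. The fl/fl mice carry loxP-flanked *Bcl6* alleles and the labels name no Cre for them. The lists hold no tag count or score, so a region is called or not called, depth is unknown and no value carries an error between replicates. A region said to keep PPARδ was called in both states, and weaker binding there after fasting would not be seen. Whole liver was used, and the lists do not give the cell type that holds a peak. Regions are the units of every count and test below, although they are not replicates and several can lie near 1 gene.

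BCL6 is a zinc finger repressor, best known for its role in germinal center B cells, that recruits the SMRT and NCoR corepressors with the histone deacetylase HDAC3 to the element TTCCTAGAA. PPARα and PPARδ are nuclear receptors for fatty acids that bind DNA with a partner, RXR. Their element is a DR1, the sequence AGGTCA repeated in the same direction after a spacer of 1 base, and it is extended on its 5′ side by the letters AACT. In liver PPARα is known for the fasting program of fatty acid oxidation and ketogenesis, whereas PPARδ is known mostly from fed liver and muscle.

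With up to 2 mismatches allowed, the DR1 is the feature that separated the members from both comparison classes. With at most 1 mismatch, which few regions held, no difference between members and regions that kept PPARδ was detected (2.85% and 2.86%). The members near lipid genes with the fewest DR1 mismatches are shown first, as examples. Each line gives 101 bases of mm10 around the DR1, read 5′ to 3′ on the strand of the DR1, with its 13 letters in capitals. The first pair has 1 mismatch among the 12 scored letters. The others have 2 and are the 6 of 15 such members near these genes whose DR1 lies nearest to the fed PPARδ centre, since ties were broken by that distance.
*Elovl5*, chr9:77848712-77848812, plus strand: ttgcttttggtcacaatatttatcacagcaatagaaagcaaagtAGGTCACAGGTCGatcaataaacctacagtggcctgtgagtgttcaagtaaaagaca
*Acox2*, chr14:8259397-8259497, plus strand: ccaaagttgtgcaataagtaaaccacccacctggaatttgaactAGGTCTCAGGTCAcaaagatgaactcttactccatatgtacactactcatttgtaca
*Por*, chr5:135708146-135708246, minus strand: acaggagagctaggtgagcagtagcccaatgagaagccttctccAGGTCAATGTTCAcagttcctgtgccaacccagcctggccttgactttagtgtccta
*Elovl3*, chr19:46110265-46110365, plus strand: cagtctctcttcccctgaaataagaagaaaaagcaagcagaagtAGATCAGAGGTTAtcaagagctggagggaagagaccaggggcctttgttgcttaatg
*Lipc*, chr9:70828019-70828119, minus strand: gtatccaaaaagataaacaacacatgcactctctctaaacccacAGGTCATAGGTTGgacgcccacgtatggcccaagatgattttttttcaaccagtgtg
*Acad11*, chr9:104071393-104071493, plus strand: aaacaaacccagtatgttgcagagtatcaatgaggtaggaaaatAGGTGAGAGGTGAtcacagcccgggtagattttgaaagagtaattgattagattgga
*Hadh*, chr3:131263907-131264007, minus strand: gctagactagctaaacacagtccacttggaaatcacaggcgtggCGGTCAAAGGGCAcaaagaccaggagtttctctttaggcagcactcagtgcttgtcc
*Lpin2*, chr17:71207489-71207589, plus strand: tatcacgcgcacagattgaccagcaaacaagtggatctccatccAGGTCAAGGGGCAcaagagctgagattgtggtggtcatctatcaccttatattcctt
*Elovl5* and *Elovl3* lengthen fatty acids, *Acox2* acts in peroxisomal oxidation of branched chains, *Por* passes electrons to microsomal cytochromes P450, and *Lipc* is hepatic lipase. *Acad11* and *Hadh* act in fatty acid β-oxidation, and *Lpin2* makes diacylglycerol. The *Acox2* region lies 386 bp upstream of the TSS, inside its promoter. Those at *Por*, *Lipc*, *Acad11*, *Hadh* and *Lpin2* are intronic, and those at *Elovl5* and *Elovl3* are intergenic, 68593 bp and 21535 bp upstream.

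Other members near lipid genes hold nothing closer to a DR1 than 5 mismatches of 12, although PPARδ was called there in fed liver, and of 7 with 5 mismatches the 2 whose best match lies nearest to the fed PPARδ centre are shown for contrast.
*Scp2*, chr4:108124172-108124272, plus strand: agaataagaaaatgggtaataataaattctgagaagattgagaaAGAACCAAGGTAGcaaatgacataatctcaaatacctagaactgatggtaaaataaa
*Eci2*, chr13:35016151-35016251, plus strand: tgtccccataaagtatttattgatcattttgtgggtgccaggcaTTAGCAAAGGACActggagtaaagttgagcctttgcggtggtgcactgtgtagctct
The first lies 5668 bp upstream of *Scp2*, the peroxisomal sterol carrier and thiolase, and the second 22045 bp upstream of *Eci2*, an enoyl-CoA isomerase. For comparison, these are 2 of the 3 regions near lipid genes where PPARδ was called in both states and the DR1 has 1 mismatch, the third lying 31524 bp upstream of *Crot*.
*Fabp1*, chr6:71199768-71199868, minus strand: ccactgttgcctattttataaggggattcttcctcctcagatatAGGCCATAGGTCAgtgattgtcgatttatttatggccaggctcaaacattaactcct
*Hadh*, chr3:131271327-131271427, plus strand: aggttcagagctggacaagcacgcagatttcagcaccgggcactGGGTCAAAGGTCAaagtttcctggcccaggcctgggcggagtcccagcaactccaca
The *Fabp1* region is in the promoter of liver fatty acid-binding protein, 89 bp upstream of the TSS. *Hadh* holds a region of each kind: the one with PPARδ in both states lies in an intron, 707 bp downstream of the TSS, and the member shown above lies 8136 bp downstream.

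The BCL6 element is shown at the members near listed genes that hold it without mismatch, a set picked after the values were seen. The 9 letters of the element are in capitals, with 61 bases in all on its own strand.
*Igf1*, chr10:87906918-87906978, plus strand: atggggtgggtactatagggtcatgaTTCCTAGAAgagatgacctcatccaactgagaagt
*Bcl6*, chr16:23996510-23996570, minus strand: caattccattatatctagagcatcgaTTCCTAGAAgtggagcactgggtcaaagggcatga
*Abhd2*, chr7:79310458-79310518, plus strand: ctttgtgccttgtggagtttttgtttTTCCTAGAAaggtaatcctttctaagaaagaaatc
*Lipc*, chr9:70827958-70828018, minus strand: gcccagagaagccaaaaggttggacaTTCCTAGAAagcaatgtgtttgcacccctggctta
These lie in introns of *Igf1*, the hepatic growth hormone-dependent growth factor, *Abhd2*, a lipid hydrolase, and *Lipc*, and 7766 bp upstream of *Bcl6* itself. The *Lipc* region is the same one that is shown above for its DR1. Exact BCL6 elements were found in 24 of the members (1.14%). They were found in 5 of 665 regions that kept PPARδ (0.752%) and in 34 of 3094 without PPARδ (1.099%). No difference of the members from either class was detected (Fisher's exact test, adjusted p = 0.661 and 0.946).

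Most PPARδ peaks of fed liver were not called after fasting, with or without BCL6. Of the 2773 constant BCL6-PPARα regions with fed PPARδ, 76.0% (95% Wilson confidence interval 74.4% to 77.6%, counting error only) had no fasted PPARδ centre within 200 bp. Over all 7328 fed PPARδ peaks the share was 79.1% (78.2% to 80.0%). Counted per fed PPARδ peak, it was 76.0% of 2756 peaks with BCL6 and PPARα in both states and 76.1% of 1442 peaks with PPARα in both states and no BCL6. Where PPARα was called in fed liver only the shares were higher, at 94.9% of 136 peaks without BCL6 and 98.2% of 108 peaks with BCL6 in fed liver only. The share was 81.6% of 1085 peaks where PPARα was called in both states and BCL6 in fed liver only, and 79.8% of 624 peaks with neither factor. These shares are the contrast that chose the members and are given without a test. The fasted PPARδ list held only 2399 peaks, so a high share lost follows in part from the sizes of the lists.

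**Figure D1:**
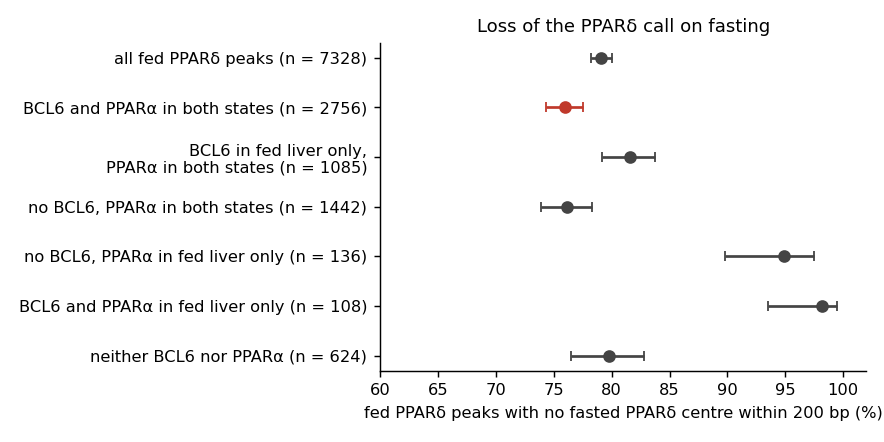
Share of fed PPARδ peaks with no fasted PPARδ centre within 200 bp, in percent, by the BCL6 and PPARα calls at the peak. Points are shares and bars 95% Wilson intervals, and the peaks with BCL6 and PPARα in both states (red, 76.0%) sit just below all fed PPARδ peaks (79.1%), whereas the shares with PPARα in fed liver only are 94.9% and 98.2%.

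The members did not crowd the limit of the rule. The fasted PPARδ list held 2399 peaks, against 7328 in fed liver, so a long distance to it does not measure how clear a loss is. The median distance of members to a fasted PPARδ centre was 120215 bp. Only 7 had one between 200 and 400 bp away, the nearest being 201 bp at a region 1763 bp upstream of *Myc*, 214 bp near *Dbx1* and 225 bp near *Tgfbr3*. On the inner side, 9 of the regions with PPARδ in both states had their fasted PPARδ centre 150 bp or more away, the farthest being 196 bp near *Nectin1* and 193 bp at the *Fabp1* promoter. The fed PPARδ centre was 150 to 200 bp away at 23 members, up to 200 bp near *Clec2d*, and the regions counted as without PPARδ began at 203 bp near *Ireb2*.

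The factors sat closely together. From the fed BCL6 centre, the median distance was 24 bp to fasted BCL6 (quartiles 11 and 43), 24.5 bp to fed PPARα, 25 bp to fasted PPARα and 30 bp to fed PPARδ (quartiles 14 and 53). Fed PPARδ lay within 50 bp of fed BCL6 at 1524 members (72.3%) and within 50 bp of fed PPARα at 1658 (78.7%). Fed and fasted PPARα centres were under 50 bp apart at 1849 members (87.7%), with a median of 20 bp. In the regions that held PPARδ in both states, the median from fed BCL6 to fed PPARδ was 25 bp and to fasted PPARδ 31 bp.

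Floxed mice gave a call of BCL6 that the rule did not use. A fed BCL6 centre of Bcl6 fl/fl livers lay within 200 bp of 1974 members (93.6%, 92.5% to 94.6%), against 69.4% of all fed BCL6 peaks. The regions without PPARδ had such a call less often, at 2698 of 3094 (87.2%), an odds ratio of 2.16 (95% interval 1.76 to 2.65, two-sided Fisher's exact test, adjusted p = 2.20e-13). Regions with PPARδ in both states had it at 633 of 665 (95.2%), an odds ratio of 0.745 (0.508 to 1.12, adjusted p = 0.287), so no difference was detected there. All p-values of this kind were adjusted by the Benjamini-Hochberg method over the same 18 tests, 9 measures against each class. Members and both comparison classes were chosen to have BCL6 called in fasted liver too, which was not required of all fed BCL6 peaks. Their shares above 69.4% are therefore not independent of the rule.

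Members held a DR1 less often than regions that kept PPARδ and more often than regions that had none. Within 200 bp around the fed BCL6 centre, and with at most 2 mismatches of 12 letters on either strand, a DR1 was found in 325 members (15.4%, 13.9% to 17.0%). It was found in 140 of the regions with PPARδ in both states (21.1%, 18.1% to 24.3%), an odds ratio of 0.684 for the members (0.548 to 0.851, Fisher's exact test, adjusted p = 0.00384). In regions without PPARδ it was found in 272 (8.79%, 7.84% to 9.84%), an odds ratio of 1.89 (1.59 to 2.24, adjusted p = 3.37e-12). All fed BCL6 peaks had a DR1 at 11.0%, and windows 1000 bp to either side of the members at 3.42%. The difference from regions that kept PPARδ was not seen among the closest DR1s: with at most 1 mismatch the shares were 60 of 2108 (2.85%) and 19 of 665 (2.86%), an odds ratio of 0.996 (adjusted p = 1). In windows of 50 bp the difference from regions without PPARδ kept its direction (odds ratio 1.53) and missed the threshold (adjusted p = 0.0624).

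From 2 mismatches upward, the members lay between the other classes in their closeness to a DR1, with regions that kept PPARδ closer and regions without it farther. This order is given as a description. At 1 mismatch the members (2.56%) lay just below regions that kept PPARδ (2.86%) and above those without it (1.52%). At 0 mismatches the order did not hold. The fewest mismatches in a region were 2 in 12.6% of the members, 18.2% of the regions that kept PPARδ and 7.18% of those without it. They were 5 or more in 10.4%, 6.92% and 15.4%. A DR1 without any mismatch was found in 6 members, in 0 of the 665 regions that kept PPARδ (interval up to 0.574%) and in 3 of those without it. Fed PPARδ was called at 63.5% (59.6% to 67.2%) of the regions whose best DR1 had 2 mismatches and at 35.8% (32.4% to 39.3%) of those with 5 or more. Of the regions with fed PPARδ, 68.7% (63.9% to 73.1%) lost it with 2 mismatches, 74.3% with 3, 78.5% with 4 and 82.6% (77.6% to 86.7%) with 5 or more. With at most 1 mismatch 76.0% lost it, of only 79 regions (65.5% to 84.0%).

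**Figure D2:**
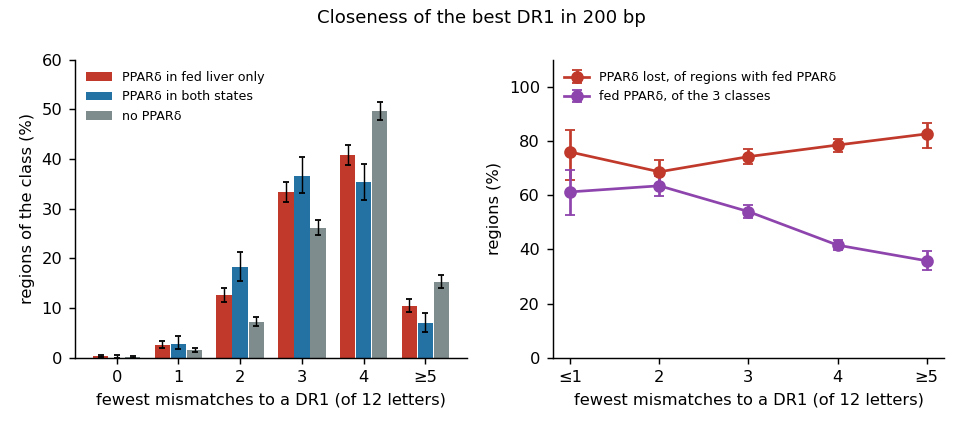
Fewest mismatches to a DR1 in the 200 bp around the fed BCL6 centre. Left, percent of each class (bars, 95% Wilson intervals), where members (red) lie between regions with PPARδ in both states (blue) and without PPARδ (grey) at 2, 3, 4 and 5 or more mismatches. Right, percent of regions with fed PPARδ among the 3 classes (purple), down to 35.8% at 5 or more mismatches, and percent of these that lost PPARδ (red), from 68.7% at 2 to 82.6% at 5 or more.

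On the 5′ side of the DR1, letters matching AACT were less frequent in members than in regions that kept PPARδ. At least 3 of the 4 letters on the 5′ side matched AACT in 23 of the 325 DR1s of members (7.08%, 4.76% to 10.4%). The same held for 28 of 140 DR1s in regions that kept PPARδ (20.0%, 14.2% to 27.4%) and for 11 of 272 in regions without PPARδ (4.04%, 2.27% to 7.10%). The mirrored letters on the 3′ side, counted for comparison, were present at 9.23%, 7.14% and 9.93%. On the 5′ side the intervals of members and of regions that kept PPARδ do not meet, whereas those of members and of regions without PPARδ overlap. This was planned as a description and no test was run. Inside the DR1, the letters most often replaced in members were the T at position 4 (27.7%), the T at position 11 (25.2%) and the G at position 10 (22.8%), counted from the 5′ end. The A at position 6, which ends the first AGGTCA, was replaced least, in 5.23%. The spacer was A in 43.7% of the members' DR1s and in 52.9% of those in regions that kept PPARδ.

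The places of the DR1 and the BCL6 element in the members are given as a description. The middle of the DR1 lay a median of 35 bp from the fed PPARδ centre and 42 bp from the fed BCL6 centre, and within 25 bp of them in 123 and 87 of the 325 regions. For the fasted PPARα centre the median was 34 bp and 128 regions were within 25 bp. BCL6 elements lay a median of 41.5 bp from fed BCL6, about as far as the DR1, and 52.5 bp from fed PPARδ. The window of the search was centred on fed BCL6, which bounds the distance from BCL6 at 100 bp and not the others.

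**Figure D3:**
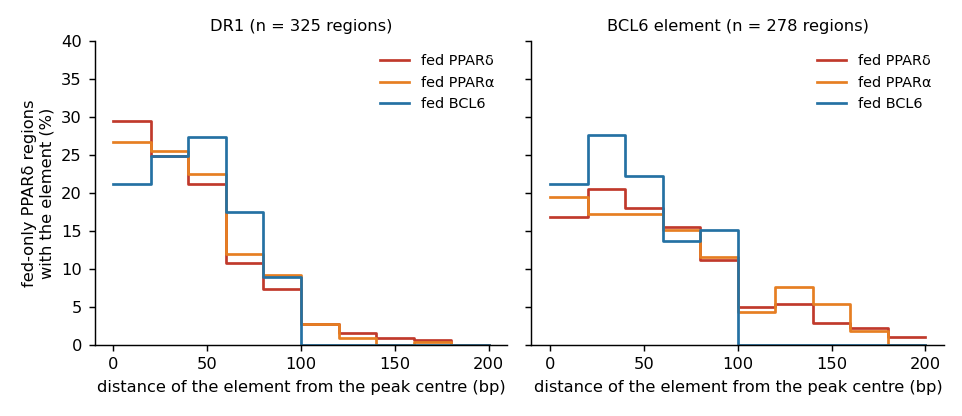
Distance in bp from the middle of the DR1 (left, 325 members) or of the BCL6 element (right, 278 members) to the fed PPARδ, PPARα and BCL6 peak centres, as percent of these members in bins of 20 bp. DR1s are most frequent in the first bin for PPARδ and PPARα and farther out for BCL6, and elements were searched only within 100 bp of the BCL6 centre.

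The BCL6 element, with at most 1 mismatch on either strand, did not separate the classes. It was present in 278 members (13.2%, 11.8% to 14.7%), in 12.3% of regions that kept PPARδ (odds ratio 1.08, 0.827 to 1.40, Fisher's exact test, adjusted p = 0.672) and in 11.6% of those without PPARδ (1.16, 0.982 to 1.37, adjusted p = 0.198). All fed BCL6 peaks held it at 16.0% and the flanks of the members at 7.07%. The STAT element TTCNNNGAA, which also matches every exact BCL6 element, was present in 14.0% of the members and in 14.8% of all fed BCL6 peaks. It was more frequent in members than in regions without PPARδ (10.5%), an odds ratio of 1.38 (1.17 to 1.63, Fisher's exact test, adjusted p = 0.00107). Against regions that kept PPARδ (12.0%) the odds ratio was 1.19 (0.911 to 1.54, adjusted p = 0.325).

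Elements of hepatocyte factors were present in the members at shares near those of all fed BCL6 peaks. HNF6, a onecut factor, was represented by TATTGAT, found in 12.7% of the members against 9.79% of regions without PPARδ (odds ratio 1.34, 1.12 to 1.59, Fisher's exact test, adjusted p = 0.00473) and 11.6% of all fed BCL6 peaks. Regions that kept PPARδ held it at 11.1% (odds ratio 1.16, adjusted p = 0.418). In windows of 50 bp the STAT and HNF6 differences from regions without PPARδ kept their direction and missed the threshold (adjusted p = 0.260 and 0.0622). CAAAGTCCA with at most 1 mismatch, for HNF4, was present in 23.2% of the members, 20.0% of regions that kept PPARδ, 21.8% of those without it and 20.2% of all fed BCL6 peaks. The forkhead element TGTTTAC, for FOXA, was present in 9.44%, 9.32%, 11.4% and 9.75% in the same order, and TTGCNNAA, for C/EBP, in 28.1%, 30.1%, 30.1% and 25.5%. None of these 3 passed the threshold in either comparison, with adjusted p from 0.0739 to 1. In the members, each of the 7 elements was more frequent than in their flanks, from 1.87 times for BCL6 to 4.94 times for HNF6, a description without a test.

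**Figure D4:**
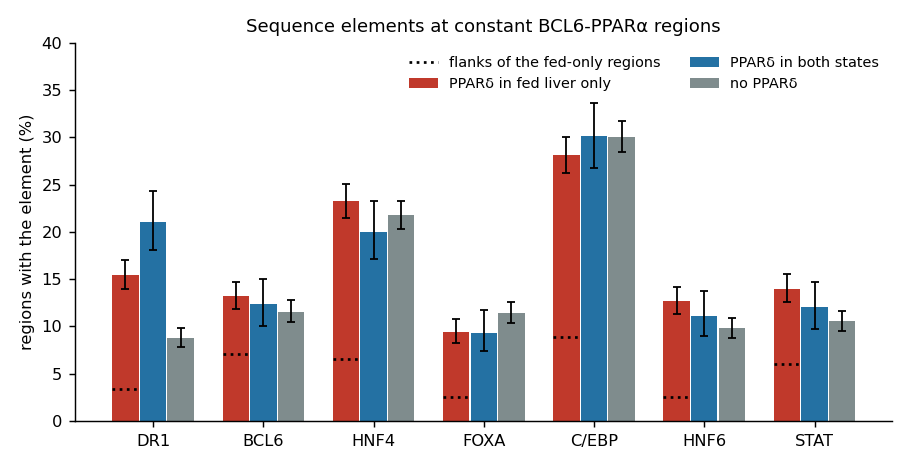
Percent of regions with each of 7 sequence elements in the 200 bp around the fed BCL6 centre, for members (red), regions with PPARδ in both states (blue) and regions without PPARδ (grey), with 95% Wilson intervals. Dotted lines are the share in windows 1000 bp to either side of the members, and DR1 is the element with the widest gaps (15.4%, 21.1% and 8.79%).

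Most regions held neither a DR1 nor a BCL6 element, in each of the 3 classes. Both were present in 39 members (1.85%), a DR1 without a BCL6 element in 286 (13.6%), a BCL6 element without a DR1 in 239 (11.3%) and neither in 1544 (73.2%). Neither was found in 69.0% of regions that kept PPARδ and in 80.8% of those without it. Of the members with neither, 978 (63.3%) held at least 1 of the other 5 elements. In members with both, their middles were a median of 58 bp apart, 17 pairs lay within 50 bp and in 1 region they overlapped. Both were present in 2.41% of regions that kept PPARδ and in 1.16% of those without it, a median of 74 bp and 64.5 bp apart. Among all members, 566 (26.9%) held none of the 7 elements, and at least 1 was held by 73.2% of the members, 72.5% of regions that kept PPARδ and 68.4% of those without it. The HNF4 element overlapped the DR1 in 24 of the 71 members with both. The same held for 7 of 30 such regions that kept PPARδ and for 25 of 64 without it.

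Members were distal. Their centres lay in introns at 1026 (48.7%), between genes at 942 (44.7%), in exons at 50 (2.37%) and in promoters at 90 (4.27%, 3.49% to 5.22%), where a promoter means the 1000 bp before a TSS and the 100 bp after it. Promoters held 4.36% of all fed BCL6 peaks. The share of members there did not differ detectably from that of regions that kept PPARδ (4.51%, odds ratio 0.944, 0.614 to 1.42, Fisher's exact test, adjusted p = 0.876) or lacked it (4.78%, 0.888, 0.681 to 1.16, adjusted p = 0.501). The median distance to the nearest TSS of a protein-coding gene was 23.7 kb (quartiles 7.48 and 65.9), against 22.2 kb and 26.1 kb in those classes. Median GC content was 45.5%, 46.5% and 44.5%, and 47.3%, 51.3% and 43.8% of the windows held no repeat. Per chromosome the members were 11.9% to 14.6% of the fed BCL6 peaks on every autosome and 6.15% on the X (15 of 244).

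By nearest TSS within 1 Mb the members fell to 1527 genes. Of these, 1122 had 1 member, 286 had 2 and 119 had 3 or more. A region that kept PPARδ lay near 270 of them, which is 17.7% of the genes with a member and 47.9% of the 564 genes with such a region. Only 438 members (20.8%) had another member within 10 kb, and the median distance to the next was 81.9 kb.

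The genes with the most members also had many fed BCL6 peaks, 9 to 28 each. *Foxo1*, the insulin-restrained transcription factor that drives gluconeogenic genes, had 8 members among 16 fed BCL6 peaks, and 2 regions that kept PPARδ. The members ran from an intron 22.8 kb into the gene to 350.7 kb downstream, and 7 of them were called in floxed livers. *Tbl1xr1*, a subunit of the NCoR and SMRT corepressor complex, had 7 among 26 peaks, of which 3 held a DR1 and 3 a BCL6 element. The region at chr3:22082828-22083044, in an intron 6284 bp from the TSS, had a DR1 with 1 mismatch and fed BCL6 and PPARδ centres 2 bp apart, and no call in floxed livers. *Eif1a*, *Lpp*, *Myc*, *Nfia* and *Plpp3* had 6 each, among 9, 28, 24, 21 and 19 peaks. Nuclear factor I/A held all of its 6 in introns, with none that kept PPARδ, whereas *Myc* had 3 that kept it. Those of *Eif1a*, a translation initiation factor gene, lay within 44.4 kb.

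*Igf1*, the main hepatic target of growth hormone, had 5 members in introns between 33.8 kb and 54.9 kb from its TSS, and *Irs1*, the insulin receptor substrate, had 5 from 52.9 kb to 132 kb downstream of its TSS. Neither had a region that kept PPARδ, and all 10 regions were called in floxed livers. *Dio3*, which inactivates thyroid hormone, had 5 as well, all of them intergenic and upstream. With *Igf1* and *Irs1* it is among 5 genes tied at this number, of which the first by the alphabet are named.

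Genes of glucose production and fuel switching kept PPARδ at 2 of 20 regions. Their 18 members (0.854% of all members, against 0.326% of all fed BCL6 peaks) lay near 10 of the 16 listed genes. *Slc2a2*, the hepatic glucose transporter, had 1 member at 15809 bp on the upstream side of its TSS and intronic ones at 16626 bp and 24824 bp. *Pcx*, pyruvate carboxylase, had 3 in its introns, and *Fbp1*, fructose-bisphosphatase, had 1 in the promoter (765 bp upstream) and 1 at 19989 bp upstream. *G6pc*, glucose-6-phosphatase, had 1 at 16520 bp upstream. *Pck1*, the rate-limiting enzyme of gluconeogenesis, had members 9260 bp and 6102 bp upstream and kept PPARδ at 17259 bp downstream. *Pdk4*, which blocks pyruvate oxidation, had members 22037 bp and 46217 bp downstream and kept PPARδ 2675 bp upstream. *Pdk2*, *Ppargc1a* and *Ppargc1b* had 1, 1 and 2 members and no kept region. The share lost was 90.0% (69.9% to 97.2%), an interval that holds the 76.0% lost over all such regions.

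Circadian clock genes kept no PPARδ region, with 9 members of 9 (70.1% to 100%), an interval that holds the 76.0% lost over all such regions. They were 0.427% of the members and 0.332% of all fed BCL6 peaks. *Rora* had 4, all in introns, and *Clock*, *Cry1*, *Cry2*, *Npas2* and *Per1* had 1 each, the *Clock* and *Per1* regions 1268 bp and 1959 bp upstream of the TSS. For BCL6 and its corepressors the count was 12 of 14 (85.7%, 60.1% to 96.0%), and this interval holds the 76.0% too. The 12 lay near *Tbl1xr1*, *Bcl6* (3) and *Bcor* (2), and only 6 of these members lay within 100 kb of the TSS.

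In the pathway of fatty acid ω-oxidation 12 of 15 PPARδ regions were members, near 7 genes, and this share (80.0%, 54.8% to 93.0%) is near the 76.0% of all such regions. *Por* had 5 and none that kept PPARδ, intergenic at 14140 bp and 10398 bp before the TSS and intronic at 1542 bp, 6332 bp and 18987 bp after it. The last has the DR1 shown above. *Cyp4a31*, a fatty acid ω-hydroxylase, had 2, at 1002 bp and 11808 bp, and *Cyp4a14* had 1 at 1486 bp upstream. At *Cyp4a10* the member lay 1069 bp into the gene and the kept region 4170 bp upstream. *Aldh3a2*, the fatty aldehyde dehydrogenase, had the same arrangement, with a member at 3174 bp and a kept region 4241 bp upstream. *Adh7* and *Cyp4f15* had 1 member each. The CYP4A genes are near-identical copies, and the authors left out reads with several matches.

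Fatty acid uptake and activation was the list with the lowest share lost, 5 of 18 regions (27.8%, 12.5% to 50.9%), beside 76.0% over all such regions. *Cd36*, a fatty acid transporter, kept PPARδ at all of its 3 regions, as did *Fabp1* at 3 and *Slc27a2*, a very long-chain acyl-CoA synthetase, at 2. *Acsl1*, long-chain acyl-CoA synthetase, kept it at 4 and had 2 members, 73775 bp upstream and 7878 bp downstream. *Acsl4*, *Acsm1* and *Acsm3* had 1 member each, the latter pair at promoters, with centres 72 bp and 71 bp before the TSS, and *Acsm1* kept PPARδ at 1 other region.

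Ketone body genes lost 4 of 12 (33.3%, 13.8% to 60.9%), beside 76.0% over all such regions. *Acat1*, which makes acetoacetyl-CoA, had 2 intronic members at 2962 bp and 6285 bp, each with a DR1 of 2 mismatches, and kept PPARδ at 8621 bp. *Bdh1*, *Slc16a1* and *Fgf21* had kept regions alone.

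Peroxisomal β-oxidation genes lost 11 of 18 (61.1%, 38.6% to 79.7%) and mitochondrial ones 4 of 7 (57.1%, 25.05% to 84.2%). Both intervals hold the 76.0% lost over all such regions. Near *Ehhadh*, the peroxisomal bifunctional enzyme, a member at 5754 bp and a kept region at 4816 bp were both intronic. The nearest fasted PPARδ centre was 946 bp from the member and 8 bp from the kept region. A kept call does not mean unchanged binding, and the paper names *Ehhadh* among loci where less PPARδ was bound after fasting. *Eci2* had 3 members, all upstream, *Scp2* had 2, and *Acox2*, *Abcd2*, *Phyh* and *Crot* had 1 each, beside 3 kept regions at *Crot*. In the mitochondrial list *Hadh* had 2, and *Acaa2* and *Acad11* had 1 each. *Cpt1a*, the gate of fatty acid entry into mitochondria, had 3 members, 1 at 2997 bp before the TSS and intronic ones at 3292 bp and 10119 bp, and *Crat* had 1. *Cpt2* and the carnitine transporter *Slc22a5* had only kept regions. Of the acyl-CoA thioesterases, *Acot12* had 2 intronic members, and *Acot4* and *Acot1* had 1 member and 1 kept region each, 4 of 6 regions lost in that list. The carnitine shuttle list lost 4 of 7 (25.05% to 84.2%). This interval and that of the thioesterases (30.0% to 90.3%) hold the 76.0% as well.

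Lipogenic, desaturase and triglyceride synthesis genes lost 14 of 22 (63.6%, 42.95% to 80.3%), an interval that holds the 76.0% lost over all such regions. *Elovl5* had 3 members, *Fads1* and *Scd1* had 2 each, and *Agpat2*, *Dgat2*, *Elovl2*, *Elovl3*, *Elovl6*, *Gpat4* and *Lpin2* had 1 each. For lipid droplet and lipolysis genes the count was 9 of 15. There *Abhd2* had 3 members and 1 kept region, and *Ces1d*, *Plin2*, *Pnpla3*, *Lipa*, *Mgll* and *Abhd5* had 1 member each, that of *Ces1d* in its promoter. *Plin2*, a lipid droplet coat protein, had its member 1044 bp upstream, 911 bp from the nearest fasted PPARδ centre. Lipoprotein and hepatokine genes lost 9 of 14 (64.3%, 38.8% to 83.7%), again an interval that holds the 76.0%. Among these were 3 members at *Apob*, 2 at *Lipc* and 1 each at *Angptl4*, *Apoa2* and *Lcat*.

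Genes of signalling and transcription factors lost PPARδ at shares whose intervals hold the 76.0% of all such regions. Insulin and growth hormone signalling had 33 members near 12 genes and 10 kept regions (76.7% lost, 62.3% to 86.9%). These were 1.57% of the members and 0.953% of all fed BCL6 peaks, and 17 of the 33 lay within 100 kb of a TSS. Besides *Foxo1*, *Igf1* and *Irs1*, there were 3 at *Ghr* and 2 each at *Foxo3*, *Igfbp1*, *Irs2* and *Pik3r1*, with 1 each at *Insr*, *Cish*, *Socs1* and *Socs2*. Nuclear receptor genes lost 18 of 28 (45.8% to 79.3%). *Nr5a2*, the bile acid regulator LRH-1, had 4 members, *Ppara* and the xenobiotic receptor *Nr1i2* 3 each, *Pparg* and *Rxra* 2 each, and *Nr0b2*, *Nr1h4*, *Nr1i3* and *Nr3c1* 1 each. *Ppara* kept PPARδ in an intron 6993 bp from its TSS, and *Nr2f2* had 5 kept regions and no member. Among hepatocyte factors, 10 of 15 were lost (41.7% to 84.8%), which is 0.474% of the members and 0.473% of all fed BCL6 peaks. With a reach of 100 kb 6 were left. The 10 were 4 at *Foxa2*, 2 at *Prox1* and 1 each at *Foxa3*, *Gata4*, *Onecut1* and *Onecut2*. Of the mitochondrial carriers, *Slc25a13* and *Slc25a30* had 2 members each and *Slc25a15*, *Slc25a25* and *Slc25a47* 1 each, 7 of 11 regions.

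Lists with no known link to these receptors gave 5 of 8 lost for cytosolic ribosomal proteins (30.6% to 86.3%) and 6 of 8 for olfactory receptors (40.9% to 92.85%). The share lost per list is the contrast that chose the members, and the lists were chosen with earlier results of these data known, so the shares are a description.

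**Figure D5:**
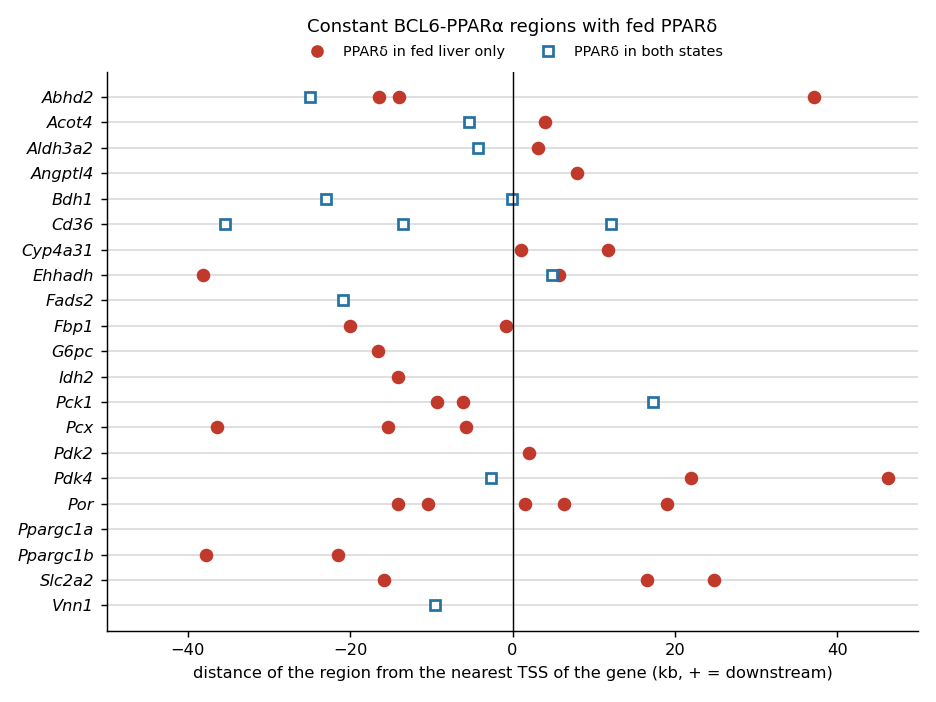
Constant BCL6-PPARα regions with fed PPARδ near loci of the study and genes of glucose production, by distance in kb from the nearest TSS of the gene (0, positive downstream). Filled red circles are members and open blue squares kept PPARδ on fasting. *Por*, *Slc2a2*, *Pcx* and *Fbp1* show circles alone and *Cd36* and *Bdh1* squares alone, and the *Ppargc1a* region lies outside the plotted 50 kb.

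The ChIP-qPCR primer pairs of the study each matched mm10 at a single place. Of 15, 6 fell on members, 7 on regions that kept PPARδ, 1 on a region without PPARδ and 1 on a fed BCL6 peak with no fasted BCL6 call. The members were at *Abhd2* (37183 bp downstream, the exact BCL6 element above), *Acot4* (4057 bp), *Cyp4a31* (11808 bp), *Idh2* (14053 bp upstream), *Por* (1542 bp) and the amplicon named for *Acot2*, whose nearest TSS is that of *Heatr4*. Over the 16 genes of these loci and of the study's tracks there were 18 members and 14 kept regions. The share lost was 56.3% (39.3% to 71.8%), beside 76.0% over all such regions. At the amplicons on members, the fewest DR1 mismatches were 3, 3, 4, 4, 3 and 2 in this order. In the 7 regions that kept PPARδ, among them those at *Acot4*, *Bdh1*, *Cd36*, *Ehhadh* and *Fads2*, they were 2 to 4. For the *Acot4* and *Ehhadh* loci the paper reports less PPARδ binding after fasting, although a fasted peak was still called at these amplicons.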

How the data were processed

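Peak lists of BCL6, PPARα and PPARδ ChIP-seq from fed and fasted male C57BL/6 livers, and of BCL6 from fed Bcl6 fl/fl livers, were used as deposited. Per its methods, the study mapped reads uniquely to mm10 by Bowtie and counted 1 read per start position. The authors then called peaks over pooled replicates against input in HOMER, and filtered them through DESeq2 on the separate libraries. The deposited values are genome positions in bp alone, without a count, score or normalization, and depth is unknown. Only these 7 lists were analysed here.

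Centres were compared at 200 bp, the distance used in the study. Elements were searched on both strands in 200 bp of the GRCm38 sequence, the assembly of mm10, around the fed BCL6 centre. Promoters used 45756 curated RefSeq transcripts, and genes the nearest protein-coding TSS within 1 Mb, which can be that of an alternative transcript. Classes were set against each other with Fisher's exact test, two-sided, and p-values were adjusted by Benjamini-Hochberg over 18 tests with a threshold of 0.05. Odds ratio intervals are 95% Woolf intervals with 0.5 added to each count. The functions were tested on simulated data.

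The members, gene lists and tests were chosen with earlier results of these data known. Genes were named where they are a study locus, are among the 10 genes with most members, belong to 1 of the 20 lists, or hold a ChIP-qPCR amplicon, and some genes of the lists are counted but not reported here by name. *Myc*, *Dbx1*, *Tgfbr3*, *Nectin1*, *Clec2d* and *Ireb2* are named for lying at the limit of the rule. Alternatives covered the distance, what counts as shared, the window, repeats, mismatches, the promoter and the reach of the TSS. Software was SciPy 1.17.1 and NumPy 2.4.6 under Python 3.11.15, with Matplotlib 3.10.9 for plots.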

Additional observations from a re-analysis of the deposited data

How the results depend on the processing

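The number of members was 1910 at 100 bp (1891 of them among the 2108), 2159 at 400 bp, 2109 by overlap of the intervals and 2122 as joined sites of the 6 lists, and the share that lost PPARδ stayed within its interval under each of these. Of 108 alternative values of the 18 tests, 100 kept their side of the threshold. Against regions that kept PPARδ, the DR1 odds ratio was 0.996 with at most 1 mismatch (60 of 2108 against 19 of 665). No difference was detected there, on counts too few to exclude one of the main size. The HNF4 odds ratio was 1.32 and passed the threshold (Fisher's exact test, adjusted p = 0.0362) with windows on the fed PPARα centre. Against regions without PPARδ, windows of 50 bp gave odds ratios of 1.53 for DR1, 1.40 for HNF6 and 1.32 for STAT, none of which passed the threshold. C/EBP passed it as less frequent in members with windows of 100 bp (odds ratio 0.813, adjusted p = 0.0137) and 50 bp (0.771, adjusted p = 0.0471), and FOXA with repeats masked (0.775, adjusted p = 0.0265). The causes of all these changes were not tested. With a TSS reach of 100 kb the members fell to 17 near insulin and growth hormone genes, to 6 near BCL6 and its corepressors and to 6 near hepatocyte factors, and 17 of 20 list counts stayed within 1.5 times.

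No paired analysis was possible because each list pools its replicates. For the same reason leaving out each replicate was not run, nor was a stricter peak threshold, since only positions were deposited. How near the uncalled PPARδ sites are to the peak caller's threshold was not tested.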
